A study of Mus musculus with 6 samples.

Results

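Il1a, Il1b, Il6, Il11, Il33, Lif, Ptgs2, Saa3, Lcn2 and Nfkbia are genes of the inflammatory and acute phase response, and their levels were followed in mouse fibroblasts treated with Tet3 and in neurons. They were found by symbol, each probe being matched to a gene by the accession that the array design gives it. Each of the 10 genes had exactly 1 probe, out of 20656 genes and 39409 probes with a usable spot on every array. The Tet3 arrays were mouse embryonic fibroblasts (MEF) under Tet3 treatment, labelled as Tet3 induced neurons, at 1, 3, 5 and 7 dpi. A further array held primary neurons, and untreated MEF were the starting cells. MEF are the mixed, mainly mesenchymal cells grown out of an embryo, here of the outbred ICR strain at E13.5, and the neurons carry the same embryonic age in their label, with no strain named for them. Per the labels' protocols, MEF received adenoviral supernatants on 2 successive days. Neuronal medium with 20 µM forskolin, which raises cAMP, replaced part of the medium on days 3 and 5 after the second infection. The sources used here do not say whether the cells at 3 and 5 dpi were taken before or after those medium changes. By their labels 1 dpi lies before both changes and 7 dpi alone lies after both. No array held MEF given a virus without Tet3 or MEF given forskolin alone, so Tet3, infection and medium cannot be told apart.

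Interleukin-1α and interleukin-1β, the products of Il1a and Il1b, are alarm cytokines that act through NF-kB, a family of transcription factors held inactive by inhibitors such as the product of Nfkbia. Interleukin-6, interleukin-11 and leukaemia inhibitory factor (Lif) share the receptor subunit gp130 (Il6st), which signals through STAT3, and interleukin-33 is a nuclear alarmin of barrier and stromal cells. Ptgs2 (cyclooxygenase 2) makes the prostaglandin precursor, and Saa3 (serum amyloid A3) and Lcn2 (lipocalin 2, which binds iron-carrying siderophores) are secreted acute phase proteins that fibroblasts can make under inflammatory signals.

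Each group was 1 array, so there were no replicates and no test between groups, and every difference below describes a pair of arrays. A level is the log2 of the background-corrected signal relative to the 75th percentile of its array, so that 0 is that percentile, and levels of different genes are not set against each other because probes differ in brightness. A gene was called higher or lower where 2 arrays differed by at least 2-fold, a log2 difference of 1. Where only 1 of 2 arrays was well above background the difference is a bound, computed against the lowest such level on the dim array or the dim probe's own level, whichever was higher. Such a gene was counted only where the bound lay on the side of the array above background. The array's error model gave a median error of 0.20 for a log2 difference, which covers the measurement on the slide and not the spread between cultures. MEF and 1 dpi were read in 1 scan and 3 dpi, 5 dpi, 7 dpi and neurons in another, so for 3, 5 and 7 dpi and neurons over MEF the scan and the group cannot be told apart. Between 72.9% and 86.1% of probes were well above background on an array. The signal ratio to MEF of the brightest of 3 Tet3 probes was 2.56-fold at 1 dpi, 3.89-fold at 3 dpi and 6.94-fold at 5 dpi. On the array labelled 7 dpi it was 1.23-fold, close to MEF. Another Tet3 probe stayed between 0.730-fold and 1.33-fold of MEF, and the third was well above background at 1, 3 and 5 dpi but neither at 7 dpi nor in MEF.

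The promoters of 5 of the genes that differed most or that NF-kB can switch on are shown because they carry the letters of motifs for transcription factors of this response. All are from RefSeq on GRCm38.p6, run 5′ to 3′ on the gene's strand, and cover 250 bases before to 50 bases after the start of the gene. Capitals mark matches to NF-kB, C/EBP and AP-1 motifs. Il6 lies at chr5:30012864-30013163 on the plus strand, Ptgs2 at chr1:150099781-150100080 on the plus strand, Saa3 at chr7:46715627-46715926 on the minus strand, Lcn2 at chr2:32387690-32387989 on the minus strand and Nfkbia at chr12:55492598-55492897 on the minus strand. The Saa3 window lies inside the span given for that gene, 46711998 to 46719615, so it uses a start within the span and not its end.
Il6: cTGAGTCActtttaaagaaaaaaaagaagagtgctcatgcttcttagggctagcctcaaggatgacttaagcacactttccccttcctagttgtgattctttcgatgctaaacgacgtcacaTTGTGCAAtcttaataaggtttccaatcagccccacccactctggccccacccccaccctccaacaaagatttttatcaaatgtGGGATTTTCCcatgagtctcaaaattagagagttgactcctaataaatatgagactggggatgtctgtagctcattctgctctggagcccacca
Ptgs2: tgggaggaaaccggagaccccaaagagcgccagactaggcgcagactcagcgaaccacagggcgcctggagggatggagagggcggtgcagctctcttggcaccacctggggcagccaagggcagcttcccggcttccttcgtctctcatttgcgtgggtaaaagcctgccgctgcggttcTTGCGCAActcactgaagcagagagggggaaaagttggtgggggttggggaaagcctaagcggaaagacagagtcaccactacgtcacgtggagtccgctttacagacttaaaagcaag
Saa3: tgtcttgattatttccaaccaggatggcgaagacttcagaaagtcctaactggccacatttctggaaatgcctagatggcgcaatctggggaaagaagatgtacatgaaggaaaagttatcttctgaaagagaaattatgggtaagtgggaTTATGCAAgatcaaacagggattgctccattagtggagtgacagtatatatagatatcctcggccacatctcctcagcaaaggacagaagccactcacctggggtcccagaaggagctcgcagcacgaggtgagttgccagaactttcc
Lcn2: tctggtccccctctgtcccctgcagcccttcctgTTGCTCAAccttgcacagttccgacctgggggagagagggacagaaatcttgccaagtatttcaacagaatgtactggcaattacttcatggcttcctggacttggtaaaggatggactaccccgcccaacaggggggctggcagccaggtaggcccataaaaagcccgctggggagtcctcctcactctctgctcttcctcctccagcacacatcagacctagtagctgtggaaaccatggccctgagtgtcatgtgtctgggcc
Nfkbia: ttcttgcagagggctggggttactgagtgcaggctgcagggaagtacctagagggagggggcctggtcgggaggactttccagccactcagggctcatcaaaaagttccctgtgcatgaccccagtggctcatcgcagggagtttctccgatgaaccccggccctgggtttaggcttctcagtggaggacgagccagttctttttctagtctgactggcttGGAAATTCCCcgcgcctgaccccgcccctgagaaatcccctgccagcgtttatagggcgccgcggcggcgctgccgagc
In Il6 the capitals are, in order, an AP-1 match at -249 to -243, a C/EBP match at -128 to -121 and an NF-kB match at -44 to -35. Ptgs2 holds a C/EBP match at -69 to -62, Saa3 at -99 to -92 and Lcn2, on the opposite strand, at -216 to -209. Nfkbia holds an NF-kB match at -29 to -20, also on the opposite strand.

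RefSeq gave 12 promoters for the 10 genes, with a pair of starts each for Il11 and Il33. The letters searched on both strands were TTNNGCAA for C/EBP, TGANTCA for AP-1 and TGACGTCA for the cAMP response element, with the NF-kB motif by its name. The C/EBP letters were chosen after the sequences had been seen. C/EBP matched 5 of 12 promoters, those of Il6, Ptgs2, Saa3, Lcn2 and the second start of Il33, against 10.8% of 32851 promoters in the table. NF-kB matched 3 of 12, those of Il6, Lif and Nfkbia, against 8.46%, and AP-1 matched 4 of 12, those of Il1a, Il6, Lif and the second start of Il11, against 7.81%. The full letters of the cAMP element, found in 1.79% of all promoters, matched 0 of 12 in these windows. Shorter or inexact forms of that element were not searched. None of these matches overlapped another. A match describes letters only, and binding was not measured.

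**Figure D1:**
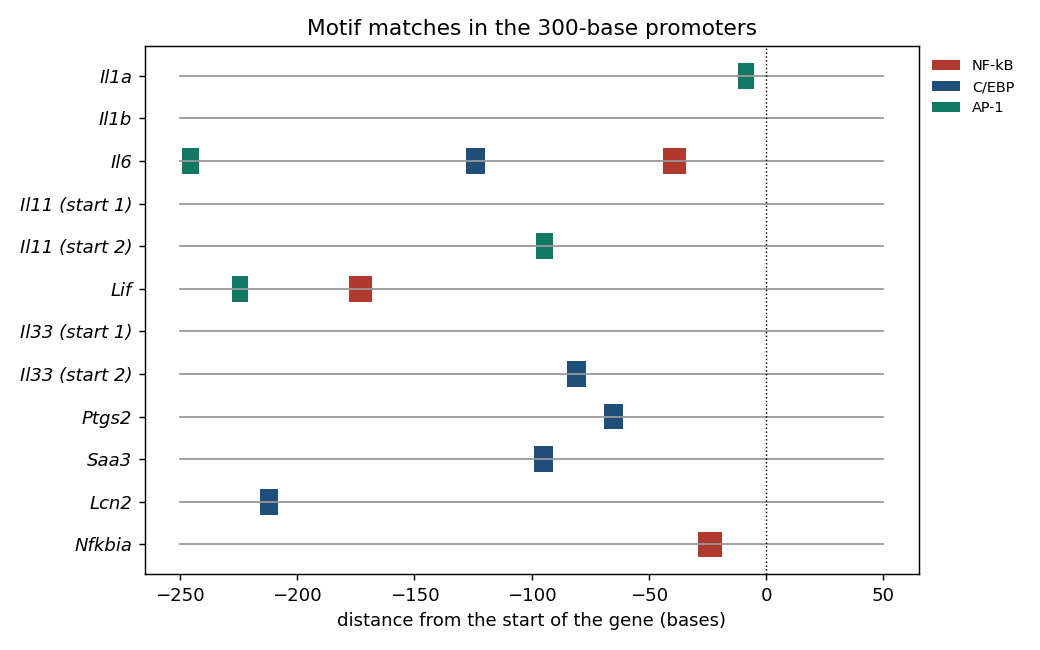
Positions of NF-kB, C/EBP and AP-1 motif matches in the 12 promoters of the 10 genes, by distance in bases from the start of the gene (dotted line). Coloured blocks are matches on either strand, and the C/EBP blocks of Il6, Ptgs2, Saa3 and Lcn2 lie between -216 and -62.

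Across the time course the 10 genes did not move as a block. At 1 dpi 1 gene was higher and 2 were lower than in MEF, where 5.38% of all genes tested were higher and 5.97% lower. At 3 dpi 2 were higher and 4 lower, against 16.3% and 9.83% of all genes. At 5 dpi 7 were higher and 2 lower, against 17.9% and 8.25%. At 7 dpi, by its label, 5 were above MEF by that threshold and 1 below, against 17% and 6.84%. After median centring the counts were 5 higher and 2 lower at 5 dpi and 3 and 2 at 7 dpi. The 10 genes were chosen with earlier results of these data known, so their counts are descriptive and test nothing against all genes. The median log2 difference over the 10 genes was -0.54 at 1 dpi, -0.03 at 3 dpi, 1.36 at 5 dpi and 0.97 at 7 dpi, beside 0.07, 0.20, 0.20 and 0.16 over all genes in the same order. Lif was called higher on all 4 Tet3 arrays and Il1b lower on all 4. Saa3 and Il6 were called in both directions at different times.

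**Figure D2:**
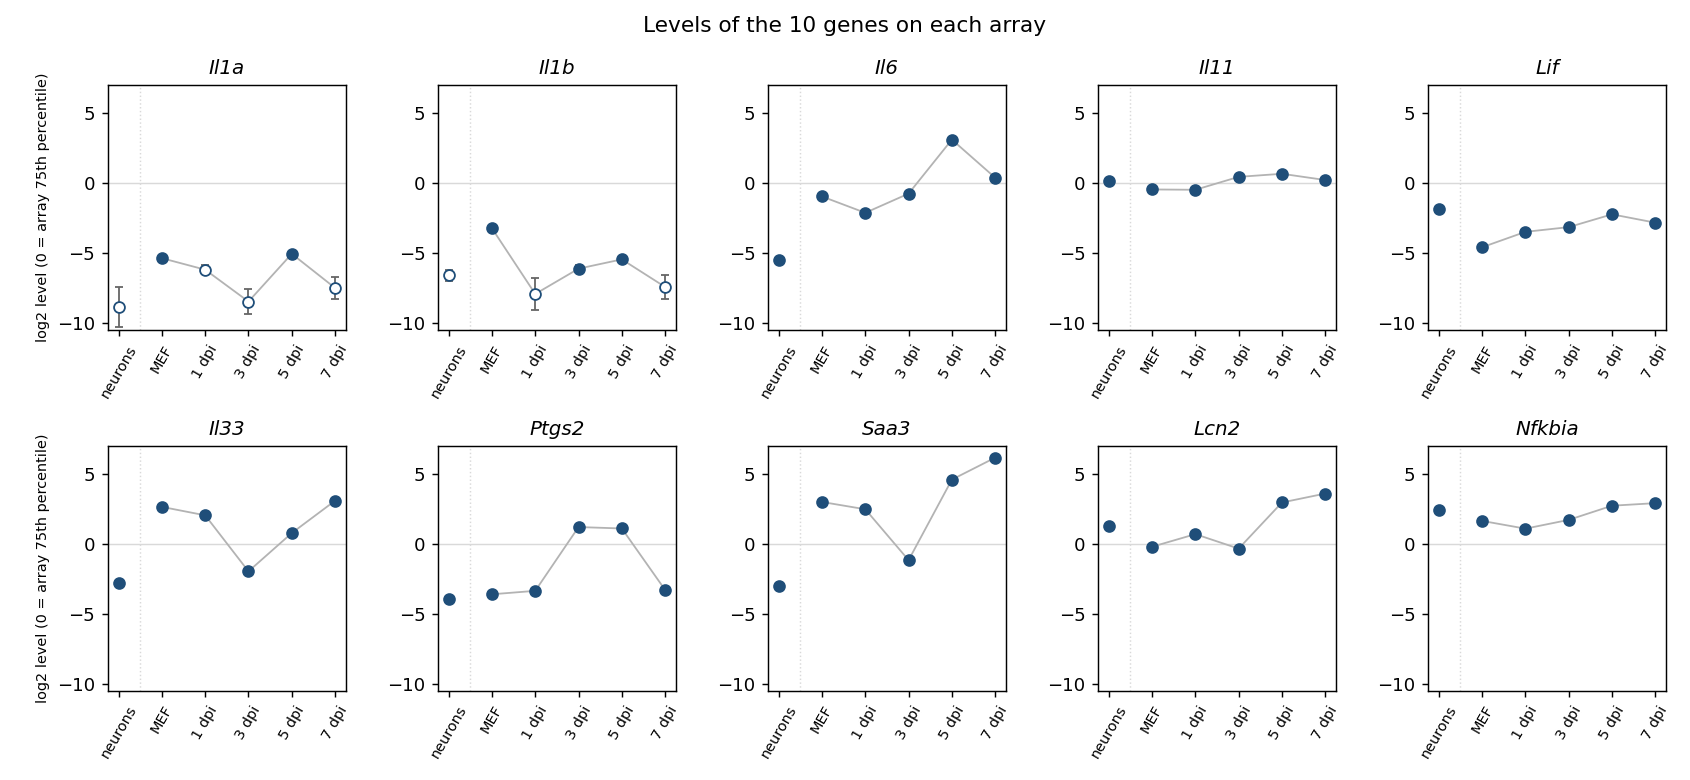
Log2 levels of the 10 genes on the 6 arrays, 1 panel a gene, with 0 at the array's 75th percentile and error bars from the array's error model. Open points are not well above background, the grey line joins MEF and the 4 Tet3 arrays, and Il6 peaks at 5 dpi (3.09) while Ptgs2 is high at 3 and 5 dpi only (1.19 and 1.08).

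**Figure D3:**
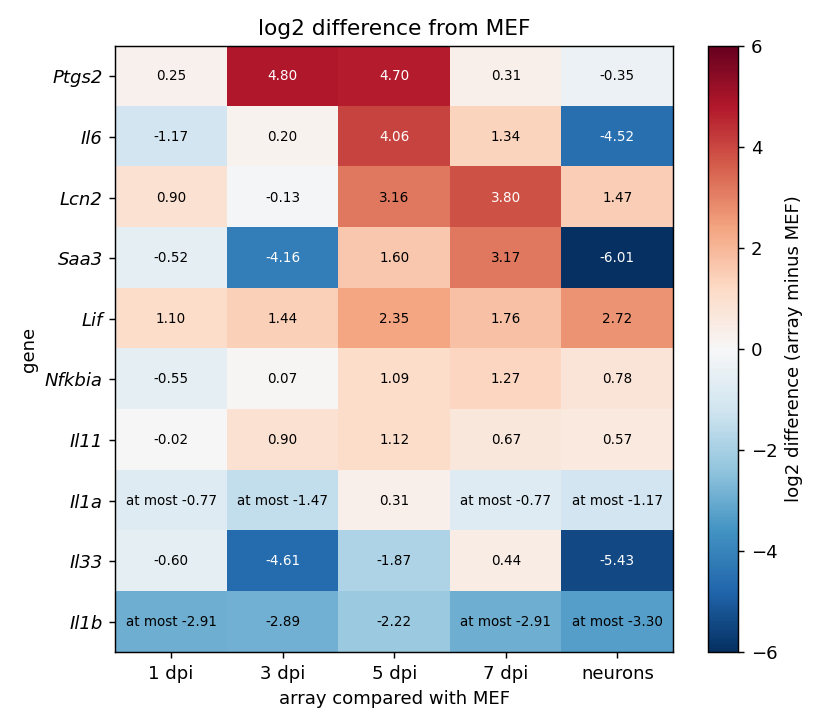
Log2 differences from MEF of the 10 genes at 1, 3, 5 and 7 dpi and in neurons, red where higher than MEF and blue where lower. Cells that read "at most" are bounds, and the 3 dpi column holds both the highest value (Ptgs2, 4.80) and 2 values under -4 (Saa3, -4.16, and Il33, -4.61).

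Il6, on chromosome 5 at 30013114 to 30019975, had log2 levels of -0.97 in MEF, -2.14 at 1 dpi, -0.77 at 3 dpi, 3.09 at 5 dpi, 0.37 at 7 dpi and -5.50 in neurons. The 5 dpi array stood apart from all others, and MEF and 3 dpi, 0.20 apart, were within 2 errors of each other. Il6 at 5 dpi was 16.7-fold higher than in MEF and 14.5-fold higher than at 3 dpi, the second pair being from the same scan. It was 6.61-fold lower at 7 dpi than at 5 dpi, yet still 2.53-fold of the MEF level. In neurons Il6 was 23-fold lower than in MEF, so the 7 dpi array was 58.2-fold higher than neurons. The log2 difference of neurons over MEF, -4.52, was -3.18 after normexp and -5.42 after quantile normalization, and that of 7 dpi over neurons, 5.86, was 4.46 and 6.71. The lower level at 1 dpi (log2 difference -1.17) fell just short of the threshold after normexp background correction (-0.98), and the call at 7 dpi after centring on the median (0.90).

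Lif, on chromosome 11 at 4257568 to 4272514, had low levels of -4.60 in MEF, -3.50 at 1 dpi, -3.16 at 3 dpi, -2.25 at 5 dpi, -2.84 at 7 dpi and -1.88 in neurons. MEF was the lowest and neurons the highest, while neurons and 5 dpi, 7 and 3 dpi, and 3 and 1 dpi were each within 2 errors of each other. Lif was 5.11-fold higher at 5 dpi than in MEF and 6.57-fold higher in neurons than in MEF. Many genes of this brightness share the direction. Of genes whose mean level lay from -4 to -2, 27.8% were at least 2-fold higher at 5 dpi than in MEF, with a median difference of 0.54, and 43.9% were in neurons, with a median of 0.83. After normexp the Lif difference was 0.74 at 1 dpi and 0.98 at 3 dpi, and after quantile normalization it was 0.92 at 1 dpi, which ends those calls. The difference at 5 dpi, 2.35, was 1.70 after normexp, and those at 7 dpi and in neurons, 1.76 and 2.72, were 1.16 and 1.85 after quantile normalization.

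Il11, on chromosome 7 at 4772373 to 4782907, was the flattest of the cytokines. Its levels were -0.47 in MEF, -0.49 at 1 dpi, 0.43 at 3 dpi, 0.65 at 5 dpi, 0.20 at 7 dpi and 0.10 in neurons. It passed the threshold at 5 dpi alone, at 2.17-fold of MEF, and after median centring that difference was 0.72 on the log2 scale, below it. The levels at 3, 5 and 7 dpi and in neurons lay within 2 errors of their neighbours in order.

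Il33, on chromosome 19 at 29925113 to 29960718, had levels of 2.63 in MEF, 2.02 at 1 dpi, -1.98 at 3 dpi, 0.76 at 5 dpi, 3.07 at 7 dpi and -2.81 in neurons. The course dipped at 3 dpi and came back. Il33 at 3 dpi was 24.4-fold lower than in MEF and 16.1-fold lower than at 1 dpi. It was 6.67-fold higher at 5 dpi than at 3 dpi and 4.96-fold higher at 7 dpi than at 5 dpi, all 3 arrays from the same scan. In neurons it was 43.2-fold lower than in MEF.

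Il1b, on chromosome 2 at 129364569 to 129371164, was measured by 10 replicate spots on each array. Its levels were -3.25 in MEF, -6.13 at 3 dpi and -5.47 at 5 dpi, with SDs between spots of 0.03, 0.22 and 0.16, and it was not well above background at 1 dpi (-7.94), at 7 dpi (-7.44) or in neurons (-6.62). MEF was the highest array. Il1b was 7.39-fold lower at 3 dpi than in MEF and 4.66-fold lower at 5 dpi, and it was at least 7.5-fold lower at 1 dpi and at 7 dpi and at least 9.87-fold lower in neurons. Normexp brought these log2 differences closer to 0, at -1.63, -1.71, -1.21 and -1.61 for 1, 3, 5 and 7 dpi and -1.60 in neurons, all still past the threshold. Of the 10 spots in MEF 3 were set aside as outliers.

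Il1a, also on chromosome 2 at 129299609 to 129310186, had 1 spot and was dim throughout. It was well above background at 5 dpi (-5.07) and in MEF (-5.38) alone, and those arrays differed by 0.31 with an error of 0.25. At 3 dpi it was at least 2.77-fold lower than in MEF, a bound that became -0.87 on the log2 scale after normexp. At 5 dpi it was at least 3.44-fold higher than at 3 dpi.

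Markers of macrophages, cells that make interleukin-1β, were lower than in MEF on the same arrays as Il1b. Of 17 such markers that could be compared, 15 were lower at 1 dpi, 15 at 3 dpi, 16 at 5 dpi and 16 at 7 dpi than in MEF, and 0 were higher on any of them. Their summed signal, in units of the array's 75th percentile, was 368 in MEF, 76.6 at 1 dpi, 40.5 at 3 dpi, 11.5 at 5 dpi, 8.82 at 7 dpi and 23.2 in neurons. From 3 to 5 dpi, in the same scan, 17 of 18 markers were lower, with a median of -2.71. Il1b differed by 0.66 at that step, with an error of 0.31. Its level at 3 dpi, -6.13, lay near the lowest level well above background at 5 dpi, -6.77. A fall as large as the markers' median could therefore not have been measured for Il1b. Of 18 markers with a probe 15 were well above background at 7 dpi and 17 in MEF. Mrc1, the mannose receptor, was at most -10.81 at 7 dpi on the log2 scale relative to MEF, a bound, and C1qa, a complement subunit of macrophages, was at -9.52. The part of these cells in the Il1b values was not tested. In such bulk samples fewer cells of a type and less RNA per cell cannot be told apart.

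Genes that process or oppose interleukin-1 were mixed. In the list of 18, 2 of 15 tested were higher and 4 lower at 1 dpi, 2 and 5 of 15 at 3 dpi, 3 and 7 of 16 at 5 dpi, and 1 and 7 of 15 at 7 dpi, with list medians of -0.62, -0.50, -0.52 and -0.56. Casp1, the protease that cleaves interleukin-1β, differed from MEF by -0.96 at 1 dpi, -2.82 at 3 dpi, -4.54 at 5 dpi and -5.77 at 7 dpi. The inflammasome sensor Nlrc4 differed by -2.51 and -3.47 at 1 and 3 dpi, and the DNA sensor Aim2 differed by -1.65 at 1 dpi and -3.25 at 5 dpi. Il18, another cytokine that caspase-1 cleaves, differed by -1.31 at 1 dpi, -0.59 at 3 dpi and -2.57 at 5 dpi. Il1rn, the natural receptor antagonist, went the other way, at 1.92, 2.29 and 1.44 at 1, 3 and 5 dpi and -0.45 at 7 dpi, and it is named here after its values were seen. Casp1, Nlrc4 and Aim2 were lower at 3, 5 and 7 dpi beside the macrophage markers, whose part in them was likewise not tested.

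**Figure D4:**
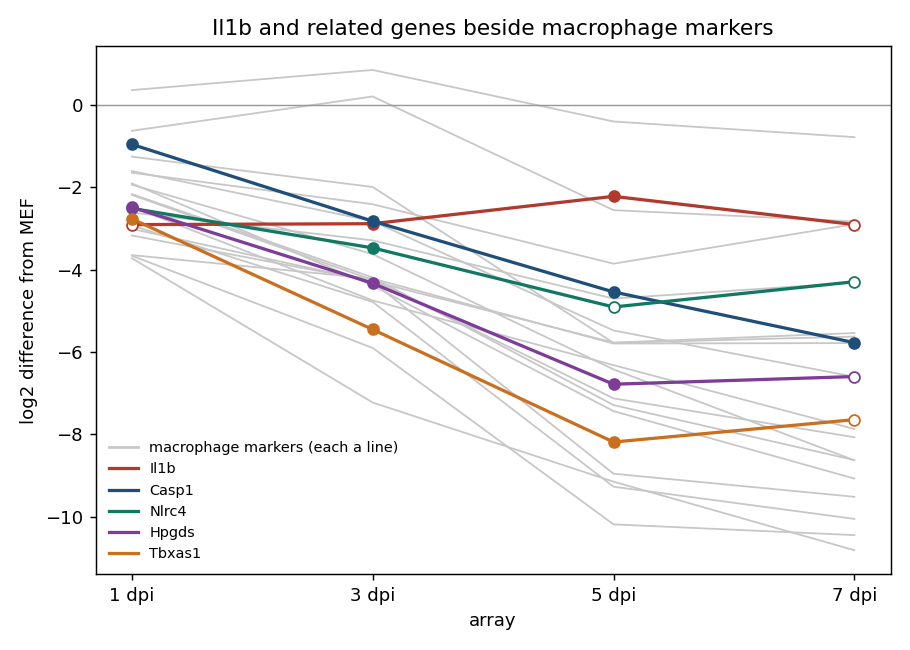
Log2 differences from MEF at 1, 3, 5 and 7 dpi for Il1b, Casp1, Nlrc4, Hpgds and Tbxas1 (coloured) and for each macrophage marker (grey lines). Open points of the coloured genes are bounds, and most grey lines lie below -4 by 5 dpi. Il1b was measured at -2.89 at 3 dpi and -2.22 at 5 dpi, and its points at 1 and 7 dpi are bounds of at most -2.91.

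Receptors for these cytokines were mostly level or lower. Of 18, 1 was higher and 5 lower at 1 dpi, 2 and 8 at 3 dpi, 2 and 6 at 5 dpi, and 3 and 5 at 7 dpi, with medians of -0.53, -0.89, -0.36 and -0.12. Il6ra, the ligand-binding chain for interleukin-6, differed from MEF by -1.65, -2.83, -1.60 and -1.29 at 1, 3, 5 and 7 dpi. Cd14 and Tlr4, the lipopolysaccharide receptor pair, differed by -3.86 and -2.18 at 5 dpi, and Tnfrsf1b, a receptor for tumour necrosis factor, by -2.19. Cd14 is also in the macrophage list. Of receptors outside the naming rule, looked at after their values were seen, gp130 (Il6st) differed by -1.31 at 5 dpi, when Il6 was highest. Il1rl1, the receptor for interleukin-33, was higher by 2.75 at 3 dpi, when Il33 was low, and stood at 0.17 at 5 dpi.

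Ptgs2, on chromosome 1 at 150100031 to 150108234, was also read by 10 spots, whose SD was between 0.06 and 0.11 on each array. Its levels were -3.62 in MEF, -3.37 at 1 dpi, 1.19 at 3 dpi, 1.08 at 5 dpi, -3.31 at 7 dpi and -3.97 in neurons. The arrays fell into 2 sets, with 3 and 5 dpi high and within 0.10 of each other and the other 4 low and each within 2 errors of its neighbour in order. Ptgs2 at 3 dpi was 27.9-fold higher than in MEF and 23.6-fold higher than at 1 dpi, and at 5 dpi it was 26-fold higher than in MEF. It was 21-fold lower at 7 dpi than at 5 dpi, in the same scan, which left a log2 difference from MEF of 0.31.

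Other genes of prostanoid metabolism did not share this course. Of 18, 0 were higher and 5 lower at 1 dpi, 0 and 6 at 3 dpi, 1 and 5 at 5 dpi, and 1 and 5 at 7 dpi, with medians of -0.42, -0.43, -0.47 and -0.38. Hpgd, which inactivates prostaglandins, differed from MEF by -2.46, -2.43, -3.81 and -3.10 at 1, 3, 5 and 7 dpi. Hpgds and Tbxas1, the haematopoietic prostaglandin D and thromboxane synthases, differed by -6.78 and -8.19 at 5 dpi, and Ptgds, the lipocalin-type prostaglandin D synthase, by -2.58. Ptges, a prostaglandin E synthase outside the naming rule, stayed at -0.80 at 3 dpi and 0.03 at 5 dpi. Macrophages also express Hpgds and Tbxas1, and their markers were lower on the same arrays.

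Forskolin acts through cAMP, and Ptgs2 is a known cAMP-responsive gene, so a list of cAMP-responsive and immediate early genes was set beside it. Of 20 tested, 1 was higher and 4 lower at 1 dpi, 3 and 4 at 3 dpi, 6 and 1 at 5 dpi, and 3 and 4 at 7 dpi, with medians of -0.66, -0.18, 0.46 and -0.11. After median centring the counts at 5 dpi were 4 and 3, with a median of 0.06. Fosl1, an AP-1 subunit, was higher by 1.55 at 1 dpi, 4.05 at 3 dpi and 3.41 at 5 dpi and stood at 0.83 at 7 dpi. The growth factor gene Ereg was at 0.74, 2.78, 3.20 and 1.57 at 1, 3, 5 and 7 dpi, and its relative Areg was at least 2.67 and 3.93 higher at 3 and 5 dpi. Ppargc1a, a coactivator of mitochondrial genes, was at 0.71 at 3 dpi and at 2.93 and 3.19 at 5 and 7 dpi. By its label 1 dpi lies before the forskolin medium. The part of forskolin in the values at 3, 5 and 7 dpi was not tested, since no array held forskolin without Tet3.

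Saa3, on chromosome 7 at 46711998 to 46719615, had levels of 2.98 in MEF, 2.46 at 1 dpi, -1.18 at 3 dpi, 4.58 at 5 dpi, 6.14 at 7 dpi and -3.03 in neurons. Its course dipped at 3 dpi and overshot MEF afterwards. Saa3 was 17.9-fold lower at 3 dpi than in MEF, but 3.03-fold higher at 5 dpi and 8.98-fold at 7 dpi. Within the same scan it was 54.1-fold higher at 5 dpi than at 3 dpi and 2.97-fold higher at 7 dpi than at 5 dpi. The 7 dpi array was 578-fold higher than neurons, where Saa3 was 64.4-fold lower than in MEF.

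Lcn2, on chromosome 2 at 32384637 to 32387739, had levels of -0.22 in MEF, 0.68 at 1 dpi, -0.36 at 3 dpi, 2.94 at 5 dpi, 3.58 at 7 dpi and 1.24 in neurons. The 5 and 7 dpi arrays were the highest, and MEF and 3 dpi were within 2 errors of each other. Relative to MEF, Lcn2 was 8.97-fold higher at 5 dpi and 14-fold at 7 dpi, and 9.82-fold higher at 5 dpi than at 3 dpi. Unlike Saa3 it was not lower at 3 dpi than in MEF (-0.13), and in neurons it was 2.76-fold of MEF. That last difference, 1.47, was 0.67 after median centring. In the neuron culture 7 of 10 astrocyte and microglia markers were higher than in MEF and 3 lower, against 30.2% and 16.1% of all genes. Gfap, the astrocyte filament protein, was higher by 8.97. The part of such cells in the Lcn2 and Lif levels was not tested.

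More of the other acute phase and iron-binding genes were lower than higher at 3 dpi, and more were higher than lower at 7 dpi. In the list of 31, 0 of 23 tested were higher and 4 lower at 1 dpi, 2 and 9 of 28 at 3 dpi, 8 and 3 of 29 at 5 dpi, and 13 and 1 of 27 at 7 dpi, with medians of -0.39, -0.17, 0.33 and 0.97. At 5 dpi the balance turned with the scaling, to 3 higher and 5 lower after quantile normalization and 3 and 6 after median centring, while at 7 dpi it was 10 and 3 and 9 and 3 under the same alternatives. Of all genes tested, 16.3% were higher and 9.83% lower at 3 dpi, 17.9% and 8.25% at 5 dpi, and 17% and 6.84% at 7 dpi. Of 30 listed genes with a probe, 23 were well above background in MEF. A gene that was not could enter only on the higher side. C3, the central complement component, differed from MEF by -1.79, -3.49, -0.86 and 2.00 at 1, 3, 5 and 7 dpi. Serpina3n, a protease inhibitor, was at -0.73, -4.05, -0.20 and 2.06, and the metalloreductase gene Steap4 at -0.31, -3.08, 1.55 and 3.44, in the same order. All 3 were lower at 3 dpi and higher at 7 dpi than in MEF. Orm2, an orosomucoid gene, differed by at most -2.61 at 1 dpi, -3.33 at 3 dpi and -2.75 at 7 dpi, all bounds. Saa1 and Lbp, serum amyloid A1 and the lipopolysaccharide-binding protein, fall outside the naming rule and stood at -3.10 and -3.31 at 3 dpi and at 2.27 and 2.47 at 7 dpi.

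Some fibroblast markers shared the dip at 3 dpi. Of 15, 2 were higher and 4 lower at 3 dpi than in MEF, and 0 were lower at 1, 5 or 7 dpi. The higher ones were S100a4, a calcium-binding protein of fibroblasts, at 3.66, and Thy1, a surface protein, at 1.47. Dcn, Fbln1 and Lum, which encode matrix proteins of connective tissue, stood at -2.71, -2.48 and -2.19 at 3 dpi, and Col1a1, the main collagen chain, at -0.27. The list's summed signal was 609 in MEF, 741 at 1 dpi, 556 at 3 dpi, 681 at 5 dpi, 722 at 7 dpi and 114 in neurons. Over the same course 9 of 13 neuron markers tested were higher at 3 dpi, or 4 after normexp, and 14 of 15 at 7 dpi. The part of changing cell types in the Saa3 and Il33 values was not tested.

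**Figure D5:**
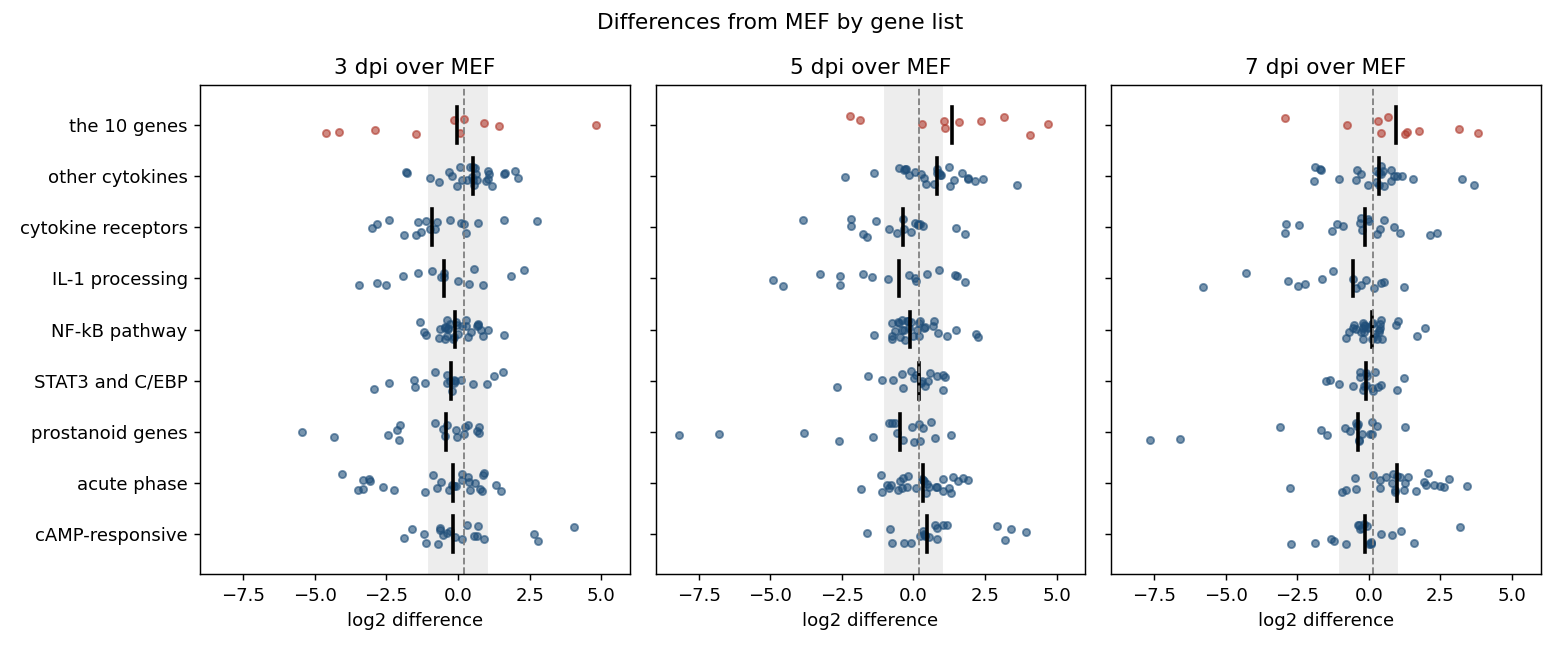
Log2 differences from MEF at 3, 5 and 7 dpi for the 10 genes (red) and for 8 further lists (blue), 1 point a gene with bounds drawn at their bound. Black bars are list medians, the dashed line is the median of all genes and the grey band is less than 2-fold, and the acute phase median stands at -0.17, 0.33 and 0.97 in the 3 panels.

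Nfkbia, on chromosome 12 at 55489409 to 55492647, is itself a gene that NF-kB can switch on, and NF-kB activity was not measured. The levels of Nfkbia were 1.62 in MEF, 1.07 at 1 dpi, 1.70 at 3 dpi, 2.71 at 5 dpi, 2.89 at 7 dpi and 2.40 in neurons. Relative to MEF it was 2.12-fold higher at 5 dpi and 2.41-fold at 7 dpi, and the 5 and 7 dpi arrays were within 2 errors of each other. Median centring put those log2 differences at 0.68 and 0.83, below the threshold.

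Most other genes of the NF-kB pathway stayed within 2-fold of MEF, as did most genes on the arrays. Of all genes tested, 17.9% were higher and 8.25% lower at 5 dpi, and 17% and 6.84% at 7 dpi. Of 30 factors, kinases and feedback inhibitors, 0 were higher and 1 lower at 1 dpi, 2 and 3 at 3 dpi, 4 and 1 at 5 dpi, and 3 and 0 at 7 dpi, with medians of -0.24, -0.12, -0.12 and 0.13. After median centring the counts were 3 higher and 5 lower at 5 dpi and 2 and 3 at 7 dpi. The genes furthest above MEF were feedback genes. Zc3h12a (regnase-1, which degrades Il6 mRNA) was at 0.36, 2.26 and 1.97 at 3, 5 and 7 dpi, Nfkbiz, which encodes a nuclear cofactor needed for Lcn2 and Il6 induction, at 1.62, 2.20 and 1.01, and Tnfaip3 (the inhibitor A20) at 0.67, 1.49 and 1.70. Nfkbie, another inhibitor of the family, differed by -1.38 at 5 dpi. Rela, the main activating subunit, outside the naming rule, stood at -0.28, -0.48 and -0.46 at 3, 5 and 7 dpi.

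Genes of the STAT3 and C/EBP response were no more often higher than lower at 5 dpi, when Il6 was highest. Of 18, 0 were higher and 3 lower at 1 dpi, 3 and 5 at 3 dpi, 3 and 3 at 5 dpi, and 1 and 3 at 7 dpi, with medians of -0.25, -0.24, 0.18 and -0.09. At 5 dpi the counts were 0 higher and 3 lower after normexp and after quantile normalization, and 0 and 4 after median centring. Of all genes tested, 17.9% were higher and 8.25% lower at 5 dpi before these alternatives. Cebpa, a C/EBP factor of fat and myeloid cells, was at -1.30, -2.43, -2.65 and -1.34 at 1, 3, 5 and 7 dpi, and Il4ra at -2.18, -2.93, -1.59 and -1.48. Bcl6, a repressor, was at -1.54 and -1.11 at 3 and 5 dpi, and Timp1, a protease inhibitor, at 1.57 at 3 dpi and 0.40 at 5 dpi. Socs3, the feedback inhibitor of gp130 signalling and outside the naming rule, was at -1.03, -1.49, -0.38 and -0.53 at 1, 3, 5 and 7 dpi, so it was not higher than in MEF on any Tet3 array.

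Among 31 other cytokines with a probe, 1 of 23 tested was higher and 3 lower at 1 dpi, 8 and 2 of 27 at 3 dpi, 9 and 2 of 26 at 5 dpi, and 5 and 5 of 25 at 7 dpi, with medians of 0.18, 0.54, 0.83 and 0.37. After quantile normalization these counts were 4 and 3 at 3 dpi, 6 and 3 at 5 dpi and 2 and 7 at 7 dpi, where the median was -0.19. After normexp they were 3 and 2, 6 and 2, and 2 and 4 on the same arrays. The list was dim in MEF, with a median level of -4.54, and 22 of its genes were well above background there. A gene that was not could enter only on the higher side. Of all genes tested, 16.3% were higher and 9.83% lower at 3 dpi, 17.9% and 8.25% at 5 dpi, and 17% and 6.84% at 7 dpi. Csf3, the granulocyte colony-stimulating factor, was not well above background in MEF and at least 3.62 and 3.66 higher on the log2 scale at 5 and 7 dpi. Tnfsf11 (RANKL) was at -2.73, -0.68, 1.90 and -1.91 at 1, 3, 5 and 7 dpi, and Tnfsf13b (BAFF) at 0.90, 0.62, 2.15 and 3.27. Tnfsf15 was at 2.44 at 5 dpi. Tnf itself, outside the naming rule, was at 0.66, 2.10, -0.15 and -0.40 at 1, 3, 5 and 7 dpi.

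Consecutive arrays show when the 10 genes moved. At 3 dpi against 1 dpi, 2 of 9 that could be compared were higher (Ptgs2 and Il6) and 3 lower (Il33, Saa3 and Lcn2), where 7.73% of all genes were higher and 5.13% lower, and these arrays are from different scans. At 5 dpi against 3 dpi, in the same scan, 6 of 10 were higher (Saa3, Il6, Lcn2, Il33, Nfkbia and, as a bound, Il1a) and 0 lower, against 8.1% and 4.54% of all genes. At 7 dpi against 5 dpi, also in the same scan, 2 were higher (Il33 and Saa3) and 3 lower (Ptgs2, Il6 and, as a bound, Il1a), against 5.88% and 4.71%. The medians over the 10 genes were 0.34, 1.40 and -0.52 for these 3 steps, beside 0.09, 0.00 and -0.01 over all genes.

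In neurons 2 of the 10 genes (Lif and Lcn2) were higher and 5 (Saa3, Il33, Il6 and, as bounds, Il1b and Il1a) lower than in MEF, where 30.2% of all genes were higher and 16.1% lower. Of 8 genes that could be compared between 7 dpi and neurons, 4 (Saa3, Il33, Il6 and Lcn2) were higher at 7 dpi and 0 were lower, against 13.9% and 19.6% of all genes. The 4 differences were 9.18, 5.87, 5.86 and 2.34 on the log2 scale, and both arrays were in the same scan. Lif differed by -0.96 between 7 dpi and neurons, just within the threshold. Ptgs2 differed by 0.66 between 7 dpi and neurons, and passed the threshold after quantile normalization (1.19) and median centring (1.02).

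Genes whose course over the 6 arrays was most like that of a member were ranked by the root mean square difference between profiles centred on their own mean, over about 16129 candidates. For Saa3 the nearest were Cyp2f2 (0.76), Saa1 (0.82) and Gdf10 (0.95). For Il6 they were Olr1 (0.95), Cxcl5 (1.00) and Tnfsf11 (1.09), and Crct1 (0.98) was among the 3 nearest to Ptgs2. None of these 3 members had a candidate within 0.5, and neither did Il33, whose nearest were Epyc (0.69), C1s2 (0.73) and Mfap2 (0.76). Lcn2 had 8 candidates within 0.5, led by Dll3 (0.34), Il13ra2 (0.34) and Ptpru (0.42). Lif had 838 within 0.5, led by Sp9 (0.15), Tmc5 (0.17) and Lockd (0.18). Its levels spanned 2.72 log2 units, while those of the members without a candidate spanned 5.16 (Ptgs2) to 9.18 (Saa3). A fixed radius is harder to meet for a wider course, so these counts do not rank how common the courses were. Il11 and Nfkbia spanned less than 2 log2 units, and Il1a and Il1b were above background on fewer than 4 arrays, so no likeness was computed for them.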

How the data were processed

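RNA of 6 samples was labelled with 1 dye and hybridised to 1 Agilent mouse array each. The intensity of each spot was taken from the scans by, per the submitters' processing notes, Agilent Feature Extraction 11.0.1.1. Of the columns deposited the one used holds intensity after background correction, per the file headers. In the authors' deposited table the values are on a log2 scale with the 75th percentile of each array at 0, as comparison with the spots shows, while the software step is not stated in the sources used here.

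Signals of a probe's spots were averaged without outlier flags and expressed as log2 relative to the 75th percentile of the array, with numpy 2.4.6 and pandas 2.3.3 in Python 3.11.15. A symbol was found for 27222 of 39429 probes through RefSeq (GRCm38.p6), and a gene was represented by its brightest probe. A probe was well above background where most of its spots carried that flag. There were 9 comparisons of 1 array with 1 array, read at 2-fold, with no p-value. Alternatives were normexp (limma 3.58.1, R 4.3.3, offset 50) on median signals, quantile normalization, median centring, the authors' table, no filter, both arrays above background, the mean over probes and a 4-fold threshold. The calling was tested on simulated data.

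The 10 genes and all lists were chosen with earlier results of these data known. The lists besides the 10 genes were cytokine receptors, NF-kB factors, STAT3 and C/EBP response, IL-1 processing, prostanoid, acute phase, other cytokines and cAMP-responsive genes, and markers of macrophages, fibroblasts, neurons, epithelium, endothelium, neutrophils, mast cells and lymphocytes, and astrocytes and microglia. Named from each pathway list were up to 4 genes with the largest difference from MEF on any Tet3 array among those past 2-fold, and for each member well above background on at least 4 arrays that spanned 2 log2 units, the 3 genes most like it. Genes outside this rule are named as such. A few of the genes most like a member are not reported here. The band of genes with a mean level from -4 to -2 was added after the values were seen.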

Additional observations from a re-analysis of the deposited data

How the results depend on the processing

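No paired analysis was possible because each group is 1 array without a replicate number, and no replicate could be left out. Of the 10 genes, the count past the threshold at 1 dpi over MEF was 3 and became 1 after normexp and 1 at 4-fold. At 4-fold the counts were 5 in place of 9 at 5 dpi over MEF, 3 in place of 6 at 7 dpi over MEF, 3 in place of 5 at 3 dpi over 1 dpi and 3 in place of 5 at 7 dpi over 5 dpi. No called difference of a member changed sign under any alternative. The scaling sets the balance of all genes: of genes called at 5 dpi over MEF, 68.5% lay above MEF, against 45.3% with quantile normalization and 40.1% after median centring. At 3 dpi over MEF these were 62.3%, 43.9% and 40.6%, at 7 dpi over MEF 71.3%, 48% and 41.9%, and for neurons over MEF 65.3%, 46.2% and 30.1%. Median centring placed the median of all genes at -0.10, -0.20, -0.28 and -0.59 in these comparisons in the order 3, 5 and 7 dpi and neurons. Over all genes, normexp gave 2769 past 2-fold in place of 4724 at 3 dpi over MEF, 2914 in place of 4796 at 5 dpi and 2499 in place of 4177 at 7 dpi, then 1115 in place of 2259 at 3 over 1 dpi, 1535 in place of 2343 at 5 over 3 dpi and 1108 in place of 1897 at 7 over 5 dpi. Without the filter the count at 3 over 1 dpi was 3552, and at 4-fold the counts lay between 330 and 3798. Counts of the 8 pathway lists from MEF, higher and lower taken separately at 4 times, moved by over 1.5 times in 14 of 64 cases with normexp, 12 with quantile normalization and 19 with median centring. Further calls that ended were those of Il1a in neurons (-0.44) and at 7 over 5 dpi (-0.57) after normexp, Nfkbia at 5 over 3 dpi (0.91) after median centring, and Lcn2 at 3 over 1 dpi after normexp (-0.97) and quantile normalization (-0.99). Calls that began were those of Ptgs2 in neurons over MEF after quantile normalization (-1.40) and median centring (-1.15), Il1a at 7 dpi over MEF after both (-1.48 and -1.21, bounds) and without the filter (-2.13), Nfkbia in neurons over MEF after quantile normalization (1.14), and Il1b without the filter at 3 over 1 dpi (1.81) and 7 over 5 dpi (-1.97). In neurons over MEF, median centring put Saa3 at -6.81 and Il33 at -6.24, and quantile normalization put Il1b at -4.64. The cause of each was not tested beyond the alternative's own construction. Of differences of single members, the authors' table moved 0 of 87, normexp 22 of 86, quantile normalization 25 of 86 and median centring 52 of 86 by more than the array error. Dim signals limit Il1a and Il1b, and with 1 array a group no value here measures the spread between cultures.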

Other observations

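The remaining marker lists were small or mostly dim. Of 12 epithelial markers 10 could be compared at 5 dpi, with 2 higher and 0 lower than in MEF, and Krt8, a simple epithelial keratin, was at least 4.15 higher while Epcam and Cdh1 were not well above background in either. Of 9 neutrophil markers with a probe, 5 could be compared at 7 dpi with 1 higher and 1 lower. The higher one, Camp, which encodes the antimicrobial cathelicidin of myeloid and epithelial cells, differed from MEF by 0.86, 0.55, 2.67 and 3.56 at 1, 3, 5 and 7 dpi. Of 8 endothelial markers that could be compared 1 was higher and 1 lower at 5 dpi. Of 9 mast cell and lymphocyte markers compared 3 were higher and 1 lower at 5 dpi, and the lower one, the leukocyte gene Ptprc, was at -3.73. P2ry12, a microglial receptor, stood at -6.38 at 5 dpi relative to MEF.

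Among genes that the body of the text did not describe, Hp (haptoglobin) and Hpx (hemopexin), which bind haemoglobin and haem, were at 1.90 and 1.38 at 5 dpi and 1.64 and 2.65 at 7 dpi relative to MEF. A2m, a broad protease inhibitor, dipped like Saa3, at -2.23 at 3 dpi and 1.94 at 7 dpi.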
